A study of Mus musculus with 6 samples.

Results

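The RefSeq noncoding RNA probes are the non-control probes of a mouse expression array whose systematic name starts with NR_, the prefix RefSeq gives to transcripts without a protein product. They number 1559 of the 55681 non-control probes on the array (2.8%) and belong to 1414 accessions. The comparison set is the 26732 probes whose systematic name starts with NM_, the prefix for protein-coding transcripts. Through their accessions, 1501 of the 1559 probes matched 1350 gene symbols of the RefSeq gene table, and 58 probes of 46 accessions are given by accession alone. These 58 probes entered no gene list below, so counts over a list cover only genes matched by symbol. The table typed 1199 probes as long noncoding RNA (lncRNA), 253 as transcribed pseudogenes and 26 as belonging to protein-coding genes, for which the NR transcript is a noncoding isoform. No probe belonged to a gene named as a microRNA precursor. By name, 2 belonged to small nucleolar or Cajal body RNAs (symbols in Snora, Snord or Scarna), a count that leaves out such RNAs with other names.

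RNA came from melanocyte stem cells, the unpigmented progenitors of pigment cells kept in the hair follicle, taken from male mouse skin by sorting for GFP-positive cells of low side scatter. There were 3 wild-type (WT) samples and 3 K14-SCF Tg samples, each on 1 single-colour array. K14-SCF Tg mice carry a transgene in which the keratin 14 promoter, active in basal keratinocytes, drives stem cell factor, which binds the receptor Kit on melanocytes, so the factor is meant to be made by keratinocytes and not by the sorted cells. The labels give no age, no source of the GFP and no statement that replicate numbers stand for separate animals, so the p-values here speak only of how far these samples spread.

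Long noncoding RNAs are made by RNA polymerase II like messenger RNAs, and many stay in the nucleus, where they build nuclear bodies, coat chromatin or silence neighbouring imprinted genes. Others are mainly carriers: a host gene is transcribed so that small nucleolar RNAs or microRNAs can be cut from it. Pseudogene transcripts are copies of coding genes that have lost their reading frame, and their probes can share sequence with the parent gene, so their values are uncertain as to which copy gave the signal.

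The array measures host transcripts, not the microRNAs cut from them. The mature sequences below, from RefSeq on build GRCm38.p6, are examples of what microRNA hosts measured on every array carry. Capitals mark the seed, bases 2 to 8. The 2 shown for Mirg have the same seed, but Mirg carries further microRNAs with other seeds, such as miR-154-5p and miR-409-3p. Mir100hg also carries let-7a-2-3p. None is shown for Mir99ahg, another host measured on every array.
miR-92a-3p (Mir17hg): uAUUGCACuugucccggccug
miR-22-3p (Mir22hg): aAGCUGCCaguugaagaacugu
miR-16-5p (Dleu2): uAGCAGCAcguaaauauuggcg
miR-100-5p (Mir100hg): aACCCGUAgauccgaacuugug
miR-125b-5p (Mir100hg): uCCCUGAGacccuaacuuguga
miR-453 (Mirg): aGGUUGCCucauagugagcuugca
miR-496a-5p (Mirg): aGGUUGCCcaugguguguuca

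Promoter windows of 250 bases before to 50 bases after the start site, also from RefSeq on GRCm38.p6, are shown for 4 noncoding RNAs that the results return to. Lncpint is a bright lncRNA with a pair of motif matches, and Firre and 1110028F18Rik did not overlap between the genotypes. Snhg1 is the brightest of the listed hosts of small nucleolar RNAs that were matched by symbol. The windows lie at chr6:31218425-31218724 on the minus strand for Lncpint, chrX:50635272-50635571 on the minus strand for Firre, chr8:106586893-106587192 on the plus strand for 1110028F18Rik and chr19:8723237-8723536 on the plus strand for Snhg1. Capitals mark the M-box, the sequence bound by the melanocyte factor MITF, searched as TCATGTG or TCACGTG on both strands, and in Snhg1 the TATA box, searched as TATAAA on both strands.
Lncpint promoter: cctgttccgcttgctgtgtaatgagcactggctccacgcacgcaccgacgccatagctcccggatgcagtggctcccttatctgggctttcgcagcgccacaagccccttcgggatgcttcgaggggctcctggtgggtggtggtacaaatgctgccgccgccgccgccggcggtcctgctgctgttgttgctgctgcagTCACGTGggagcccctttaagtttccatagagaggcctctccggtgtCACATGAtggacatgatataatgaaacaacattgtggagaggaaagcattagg
Firre promoter: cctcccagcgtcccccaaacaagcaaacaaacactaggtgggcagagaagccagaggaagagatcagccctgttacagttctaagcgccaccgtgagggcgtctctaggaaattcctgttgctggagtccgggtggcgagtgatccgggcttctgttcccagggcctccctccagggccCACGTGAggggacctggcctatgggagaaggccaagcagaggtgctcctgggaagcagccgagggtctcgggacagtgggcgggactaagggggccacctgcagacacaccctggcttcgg
1110028F18Rik promoter: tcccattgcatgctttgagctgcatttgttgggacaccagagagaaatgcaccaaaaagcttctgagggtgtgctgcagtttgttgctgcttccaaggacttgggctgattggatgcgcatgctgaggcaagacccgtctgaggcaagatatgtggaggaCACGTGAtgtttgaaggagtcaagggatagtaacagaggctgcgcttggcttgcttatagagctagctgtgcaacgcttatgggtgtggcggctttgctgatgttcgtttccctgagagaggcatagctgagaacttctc
Snhg1 promoter: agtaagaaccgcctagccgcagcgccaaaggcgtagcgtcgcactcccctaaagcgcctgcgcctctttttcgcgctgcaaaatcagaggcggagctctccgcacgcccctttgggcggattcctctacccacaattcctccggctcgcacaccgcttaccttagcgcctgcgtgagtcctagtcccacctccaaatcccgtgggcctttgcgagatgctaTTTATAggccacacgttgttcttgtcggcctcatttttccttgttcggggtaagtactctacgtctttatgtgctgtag

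The M-box letters lay at -50 and -3 from the start site of Lncpint, at -71 in Firre and at -90 in 1110028F18Rik, and the TATA letters at -29 in Snhg1. Either M-box form was present in 7.4% of the 32851 promoter windows of the table and in 7.79% of the 950 windows of genes with an NR probe. TATAAA was present in 13.6% of all windows and in 12.1% of those of genes with an NR probe. Of the 100 symbols named by the rule used here, 62 had a window, and 10 of these held an M-box form. Some symbols had several windows: counted as the shares above are, 10 of 74 windows held it.

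A level is the log2 of a probe's processed signal over the 75th percentile of its array, so 0 is the brightness of a probe at that percentile. Brightness depends on the probe as well as on the RNA, so an order of probes is one of signal, not of molecules. The scanner software called 78.37% to 87.14% of all non-control probes well above background on an array, no spot was saturated, and the dimmest probe so called had a level of -6.58 to -5.75, depending on the array. All 8 melanocyte markers, among them Tyr, Dct, Kit and Sox10, were well above background on every array, with mean levels from 3.3 to 6.09. Markers of keratinocytes (5 of 6), fibroblasts (5 of 6), leukocytes (5 of 5) and endothelial, erythroid and Schwann cells (2 of 3 each) were also above background on every array. The highest mean level among the keratinocyte markers, 6.97, was above that of every melanocyte marker. It was 5.7 among the Schwann, 3.56 among the fibroblast and 0.78 among the endothelial markers. The noncoding levels below are therefore those of mixed samples. In bulk samples, fewer cells of a type and less RNA per cell cannot be told apart.

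Noncoding probes were detected less often and at lower signal than coding probes on the same arrays. The share of NR probes well above background was 71.71%, 74.86% and 65.11% in the WT samples and 73.32%, 77.74% and 72.42% in those of K14-SCF Tg. The NM probes gave 84.33%, 86.53% and 79.8% in WT and 85.54%, 87.41% and 84.52% in K14-SCF Tg. On all 6 arrays the NR share was below the NM share, with differences of -14.69 to -9.67 percentage points and a mean of -12.16 ± 1.62 (SD, n = 6 arrays; exact two-sided sign-flip permutation test, p = 0.0312, the smallest it allows). The arrays share 1 probe set, so the test speaks for these probes and not for noncoding RNAs in general. Between the genotypes the NR share was 70.56% ± 4.98 (SD, n = 3) in WT and 74.49% ± 2.85 (SD, n = 3) in K14-SCF Tg, with overlapping ranges (exact permutation test, two-sided, p = 0.4, where 3 against 3 cannot go below 0.1).

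The median NR level was -4.23, -4.19 and -4.20 in WT and -4.10, -4.05 and -4.09 in K14-SCF Tg. All K14-SCF Tg arrays lay above all WT arrays, by 0.13 between the means, which is the smallest p that 3 against 3 can give (exact permutation test, p = 0.1). Another measure, the median log2 difference of the tested NR probes, was 0.04 in this scaling and -0.04 with each array scaled to its median. Whether the separation of the array medians holds under other scalings was not tested. The median NR level lay 2.24 ± 0.10 (SD, n = 6) below the median NM level, on every array (exact sign-flip permutation test, p = 0.0312). This gap is not changed by scaling an array with 1 factor, and it was narrower by 0.10 in K14-SCF Tg, a difference that did not pass (exact permutation test, p = 0.3).

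**Figure D1:**
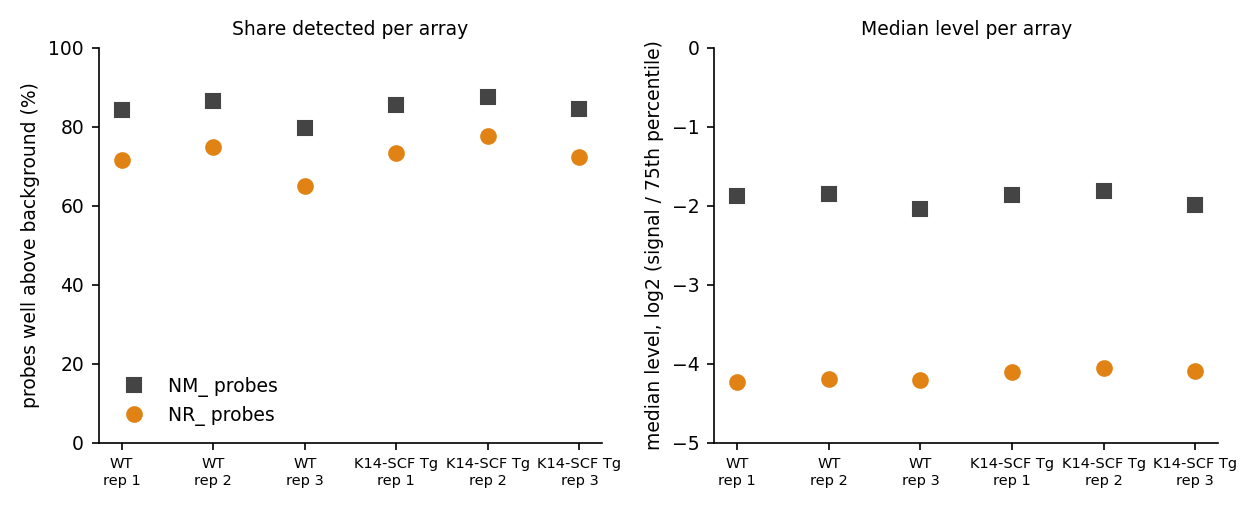
Share of probes well above background (left, percent) and median level (right, log2 of signal over the array's 75th percentile) on each of the 6 arrays, for NR probes (circles) and NM probes (squares). NR probes lie below NM probes on every array in both panels, and replicate 3 of WT has the lowest NR share, 65.11%.

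Across all arrays, 918 NR probes (58.9%) were well above background on all 6 and 210 (13.5%) on none, against 75.4% and 6.67% of the NM probes. The other NR probes were above background on 1 array (117), 2 arrays (73), 3 arrays (58) or 4 arrays (76), and the rest on 5. Of the lncRNA probes 55.2% were above background on all 6 arrays, with a median level of -4.54. Transcribed pseudogenes stood higher, at 68.4% and -2.96, and the 58 probes without a symbol higher still, at 81.0% and -2.09. Genes named only as predicted (Gm and digits) were above background on all 6 arrays for 62.4% of 367 probes, and RIKEN clones for 53.7% of 725 probes. RNAs named as antisense or opposite strand gave 56.6% of 99 probes.

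Position beside coding genes went with detection as well. Noncoding genes that overlap a protein-coding gene in the table were above background on all 6 arrays for 63.0% of 527 probes, with a median level of -3.72. Those that overlap none gave 55.0% of 948 probes and -4.63. Amplified cDNA was labelled with a kit for DNA, and the labels do not say that strand was kept, so an RNA and a gene on the other strand of the same bases may not be told apart; the part this has in the values was not tested.

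The brightest NR probes were of small structural RNA and of RNAs little described. Rn4.5s, a small RNA of rodents made by RNA polymerase III, stood at 7.59, 7.77 and 7.99 in WT and 7.85, 7.77 and 7.95 in K14-SCF Tg, the highest mean of all 1559 probes. Rn28s1, the 28S ribosomal RNA, stood at 6.01, 6.19 and 6.37 against 6.09, 6.08 and 6.31. For both, the genotypes overlapped and the 6 arrays differed little.

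Between and below these came I730030J21Rik (mean levels of 6.89 in WT and 6.83 in K14-SCF Tg), 2310002F09Rik (6.75 and 6.74), Gm6994 (6.71 and 6.62) and A130077B15Rik (6.51 and 6.49). These lncRNAs have no function that can be named here, and A130077B15Rik has an M-box form at -36 of its start site. Fbxl12os (6.35 and 6.39), 1700110I01Rik (6.11 and 6.06), A530006G24Rik (6.02 and 5.93), E330020D12Rik (5.87 and 5.97), the pseudogene 1600029O15Rik (5.74 and 5.73) and the pseudogene Gm12070 (5.73 and 5.74) completed the brightest 12 symbols. Accessions without a symbol reached the same range, with NR_033146 at 6.29 in WT and 6.43 in K14-SCF Tg and NR_046233 at 5.34 and 5.20 on its brighter probe.

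Some of these bright values rested on 1 probe of several. Fbxl12os had a probe at a mean of 6.37 over the 6 arrays and others down to -4.87. The bright probe of 1700110I01Rik stood at 6.09, and another of its probes at -3.62. E330020D12Rik had 5.92 on one probe and -3.72 on the other. By contrast, the 3 probes of Gm12070 lay between 4.52 and 5.73. Over the 83 NR symbols with more than 1 tested probe, the gap in level between the brightest and the dimmest probe had a median of 1.73 on the log2 scale, and it exceeded 1 for 57 of them.

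Small nucleolar RNAs guide the chemical modification of ribosomal RNA. Of 23 listed host genes of such RNAs, 13 matched NR probes by symbol. All 14 probes of these were well above background on all 6 arrays, with a median level of 0.74. Probes without a symbol were not in the class, among them the brightest of NR_002840, at a mean of 5.22. Snhg1 stood at 4.84, 4.53 and 4.89 in WT and 4.45, 4.37 and 4.82 in K14-SCF Tg. Its values overlapped between the genotypes. Snhg12 stood at 3.00, 3.15 and 3.42 against 2.99, 2.50 and 2.66, where all K14-SCF Tg values lay just below all WT values (log2 difference -0.48, SE 0.25; limma adjusted p = 0.942). Snhg6, Snhg3 and 1110038B12Rik differed by -0.04, -0.03 and -0.05 between the genotypes, each with an SE of 0.23 to 0.25. Over the matched probes of the class, 3 were higher and 11 lower in K14-SCF Tg, with a median difference of -0.13 and none passing the test. With quantile normalization or with scaling to NM probes the split was 6 to 8.

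The RNAs listed here for nuclear bodies were likewise detected on all arrays, on all 11 probes of 5 genes. The list is looser than its name, since beside Neat1 and Malat1 it holds Firre, Norad and Tug1. Neat1, the scaffold of paraspeckles, stood at 3.53, 3.86 and 4.45 in WT and 3.94, 3.79 and 4.65 in K14-SCF Tg. Malat1, a lncRNA of nuclear speckles, stood at 2.40, 1.95 and 3.16 against 1.66, 1.37 and 2.72. In both RNAs the third replicate of each genotype was the highest, and the genotypes overlapped (log2 difference 0.18, SE 0.37, for Neat1 and -0.58, SE 0.49, for Malat1; limma adjusted p = 0.997 and 0.982).

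Firre, an X-linked lncRNA that helps to anchor chromatin, stood at 1.04, 1.17 and 1.28 in WT and 0.72, 0.91 and 0.93 in K14-SCF Tg on its brighter probe. These genotypes did not overlap, but the log2 difference of -0.31 (SE 0.21) did not pass (limma adjusted p = 0.971), and its dimmer probe gave 0.74 (SE 0.62). Norad, which binds Pumilio proteins, had 4 probes with differences between -0.46 and -0.03. Tug1 had 3 probes, 1 of them with 10 spots, with differences between -0.32 and -0.13. Over the list 9 probes were lower and 2 higher in K14-SCF Tg, 7 to 9 being lower under every scaling tried, and none passed. The lower ones include all 4 probes of Norad and all 3 of Tug1, so the split is mainly that of these genes and not of nuclear body RNAs.

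Of the structural RNAs, Rmrp, the RNA of the RNase MRP complex, stood at 1.41, 0.89 and 1.78 in WT and 1.00, 1.13 and 1.65 in K14-SCF Tg. Rnu12, the U12 RNA of the minor spliceosome, stood at -0.54, -0.86 and -0.05 against -1.02, -2.45 and -1.54. All K14-SCF Tg values of Rnu12 lay below all WT values, with a log2 difference of -1.19 (SE 0.44; limma adjusted p = 0.885). Rnu2-10 (U2) and Rnu3b1 (U3) differed by 0.34 (SE 0.35) and -0.06 (SE 0.24). Terc, the template RNA of telomerase, was dim but above background on all arrays, at -3.49, -3.01 and -2.98 against -2.97, -3.84 and -3.43, and its genotypes overlapped.

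**Figure D2:**
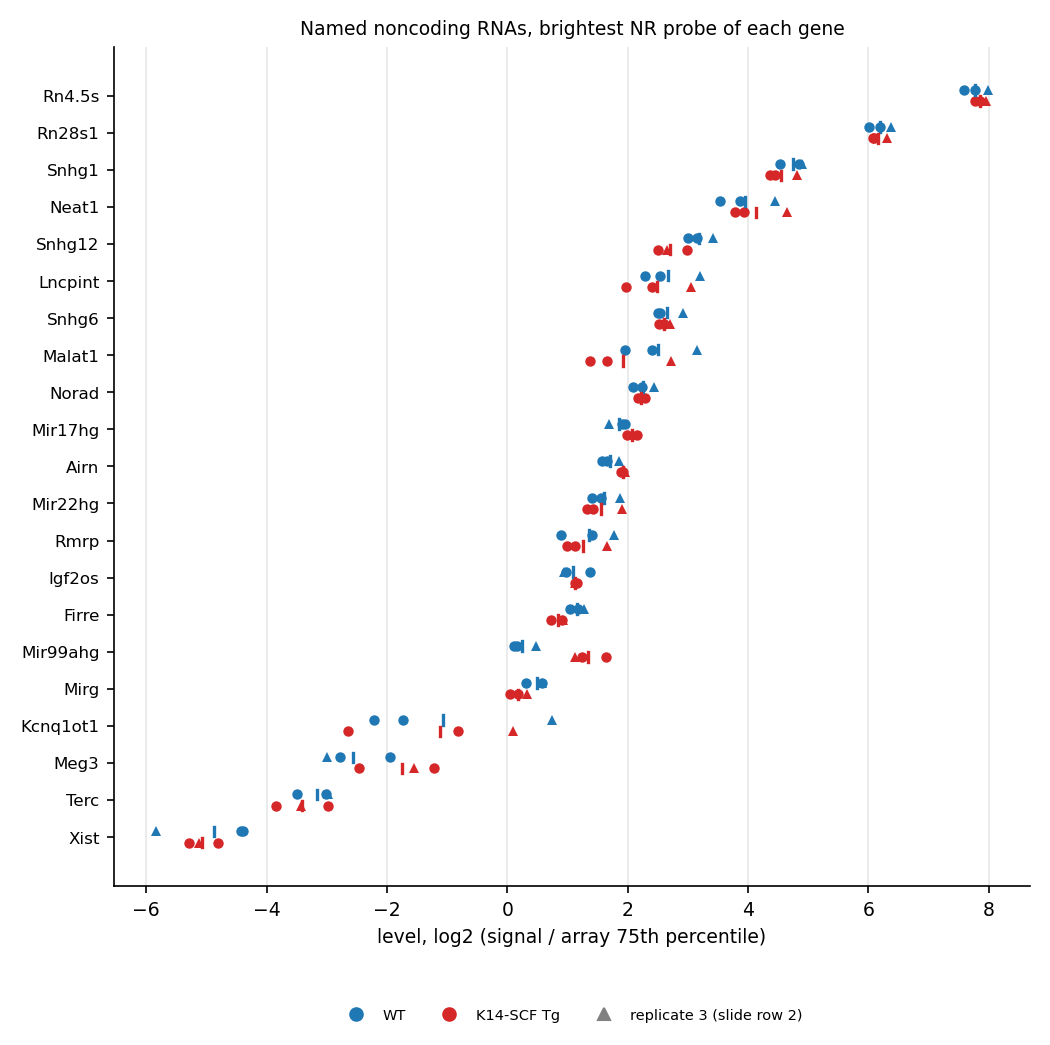
Level (log2 of signal over the array's 75th percentile) of 21 named noncoding RNAs on each of the 6 arrays, with WT in blue, K14-SCF Tg in red, triangles for replicate 3 and a vertical bar for each genotype's mean. Levels run from 7.99 for Rn4.5s to -5.84 for Xist, and the triangles lie to the right for Neat1, Malat1 and Kcnq1ot1.

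Imprinted noncoding RNAs, which are transcribed from 1 parental allele and in several cases silence the genes around them, were above background on all 6 arrays for 12 of 15 probes. Airn, the antisense RNA that silences Igf2r, stood at 1.58, 1.65 and 1.85 in WT and 1.93, 1.89 and 1.95 in K14-SCF Tg on its brighter probe. These genotypes did not overlap (log2 difference 0.23, SE 0.21; limma adjusted p = 0.984), and its other probe gave -0.65 (SE 0.73). The Igf2r probe itself stood between 3.16 and 4.25 over the 6 arrays, with a log2 difference of -0.37 (SE 0.29).

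Meg3, the maternally expressed lncRNA of the Dlk1-Dio3 domain, stood at -2.78, -1.94 and -2.99 in WT and -2.47, -1.22 and -1.55 in K14-SCF Tg on its brightest probe, with overlap (log2 difference 0.82, SE 0.45). Mirg, a microRNA host of the same domain, had a difference of the other sign, at 0.57, 0.31 and 0.57 against 0.04, 0.18 and 0.32 (log2 difference -0.31, SE 0.22; limma adjusted p = 0.972). The genotypes of Mirg overlapped only through the closeness of 0.31 and 0.32.

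Peg13 stood at 1.32, 1.18 and -0.40 in WT and 0.98, 0.88 and 0.00 in K14-SCF Tg, low in the third replicate of both. Peg3os ranged from 0.02 to 1.79 over the 6 arrays and Igf2os from 0.95 to 1.37, both with overlapping genotypes. The probe of Igf2, which Igf2os overlaps, was above background on 4 arrays and no brighter than -3.03. H19 was above background on 1 array of each genotype and reached -1.96 in the second K14-SCF Tg sample, so no difference could be tested. Of the 14 tested probes in the class, 9 were higher and 5 lower in K14-SCF Tg (8 to 11 higher over the scalings tried), and none passed. The higher include all 3 Meg3 probes. The dimmest of these was above background on 0 WT arrays and 3 K14-SCF Tg arrays. It thus passed the filter only through K14-SCF Tg, and its direction adds nothing to the count.

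Of the RNAs of the X inactivation centre, Xist, which coats the inactive X in female cells, had a probe above background on no array and a second at -4.39, -4.43 and -5.84 in WT and -4.80, -5.29 and -5.12 in K14-SCF Tg, near the limit of detection in these male samples. Ftx, a lncRNA of the same centre, was brighter, at -1.16, -0.63 and -1.30 against -1.42, -0.74 and 0.35. Jpx, an activator of Xist, was above background on 1 array. Hox cluster RNAs were dim too: Haglr, next to Hoxd1, stood between -0.66 and -0.36 on all 6 arrays, Hoxa11os between -2.47 and -1.86, and the class median was -5.72.

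Host transcripts of microRNAs ranged from bright to undetected. Mir17hg, host of the miR-17-92 cluster with miR-92a-3p shown above, stood at 1.96, 1.91 and 1.69 in WT and 2.16, 1.99 and 2.09 in K14-SCF Tg. All K14-SCF Tg values lay above all WT values by a small margin (log2 difference 0.23, SE 0.21; limma adjusted p = 0.986). Mir22hg, host of miR-22, stood at 1.56, 1.40 and 1.88 against 1.33, 1.42 and 1.91, with overlap. Lncpint, a p53-induced lncRNA and no microRNA host, stood at 2.53, 2.29 and 3.21 against 1.98, 2.40 and 3.06 on its brighter probe, and its second probe differed by -0.15 (SE 0.25).

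Mir99ahg had the smallest p of the class, at 0.11, 0.17 and 0.48 in WT and 1.64, 1.25 and 1.12 in K14-SCF Tg. Every K14-SCF Tg value exceeded every WT value. The log2 difference was 1.09 (SE 0.25; unadjusted p = 0.00522, limma adjusted p = 0.618). The probes of Usp25, the nearest coding gene, differed by -0.07 (SE 0.29) and 0.00 (SE 0.39). Mir100hg, host of the miR-100 and miR-125b shown above, stood at -2.80, -2.09 and -1.17 against -2.56, -1.89 and -2.52, with overlap. Dleu2, host of miR-16, stood at -1.82, -0.90 and -0.92 against -0.50, 0.13 and -1.40, also with overlap. Mir9-3hg was above background on no array. The list as drawn also held Lncpint, Mirt1 and Mirt2, which are not microRNA hosts, and with them 5 of 11 tested probes were higher and 6 lower. Without them 4 of 8 were higher and 4 lower, and none passed either way.

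Of 16 listed RNAs tied to p53 or growth arrest, 6 matched NR probes by symbol. Of their 10 probes, 7 were higher and 3 lower in K14-SCF Tg. Probes without a symbol, which could be of other listed RNAs, are not in this split. Over the scalings tried 6 to 8 were higher, and none passed. These are counts of probes, not of genes: all 3 probes of Meg3 and the 2 of Pvt1 are among the higher. The dimmest Meg3 probe was tested only through K14-SCF Tg. Meg3, Neat1, Mir17hg, Mir22hg and Lncpint were also counted in lists above. Of all 47709 tested probes, 24678 were higher. Pvt1, a lncRNA beside Myc, had a dim probe at -7.12, -5.33 and -7.89 in WT and -4.21, -5.20 and -3.81 in K14-SCF Tg, where WT was above background on 1 array and K14-SCF Tg on all 3. The genotypes did not overlap there (log2 difference 2.37, SE 0.74; limma adjusted p = 0.795). Its brighter probe differed by 0.05 (SE 0.31) and overlapped, and the Myc probe differed by -0.05 (SE 0.26). RNAs named as antisense or opposite strand were higher on 53 and lower on 21 of 74 tested probes, with a median difference of 0.18. Between 47 and 57 of them were higher over the scalings tried, the median over all tested probes was 0.01, and none passed.

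In the whole comparison of K14-SCF Tg with WT, no NR probe passed. Testing required a signal well above background on 3 or more of the 6 arrays, which held for 1159 NR probes (74.3%) and 23032 NM probes (86.2%), in 1 limma fit over 47709 probes with Benjamini-Hochberg adjustment. At an adjusted p under 0.05, 0 NR probes were higher (against 1 of all tested probes, 0.0021%, which was an NM probe, 0.00434% of those tested) and 0 lower (0.0%), and the smallest adjusted p of an NR probe was 0.416. At an unadjusted p under 0.05 there were 59 NR probes (5.09%), against 5.46% of all tested probes and 5.52% of NM probes. Of these, 40 were higher (3.45%, against 3.21% of all tested probes and 2.86% of NM probes) and 19 lower (1.64%, against 2.25% and 2.67%). The genotypes did not overlap on 121 NR probes (10.4%), against 10.3% of all tested probes and 10.4% of NM probes. In 75 of them K14-SCF Tg was higher (6.47%, against 5.63% of all tested probes and 4.98% of NM probes) and in 46 lower (3.97%, against 4.71% and 5.38%). The noncoding shares were near the background of the array.

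That split by direction moved with the scaling, for all tested probes as for NR probes. The 40 higher and 19 lower NR probes became 25 (2.16%) and 24 (2.07%) with each array scaled to its median, against 2.57% and 2.99% of all tested probes. They became 32 (2.76%) and 23 (1.98%) with quantile normalization, against 2.85% and 2.65%. With normexp background correction they were 27 (2.33%) and 21 (1.81%), against 2.79% and 2.55%, and with scaling to NM probes 46 (3.97%) and 17 (1.47%), against 4.0% and 1.73%. The median log2 difference of the tested NR probes was 0.04, against -0.02 for NM probes, and the median size of a difference was 0.28 against 0.30. A difference of more than 1 in size was found on 156 NR probes (13.5%), against 11.8% of NM probes. The second slide held 5 of the 6 arrays and the first only WT replicate 1. On the second slide alone, 0 NR probes passed and 33 (2.85%) were higher and 27 (2.33%) lower at an unadjusted p under 0.05, against 3.18% and 2.43% of all tested probes.

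**Figure D3:**
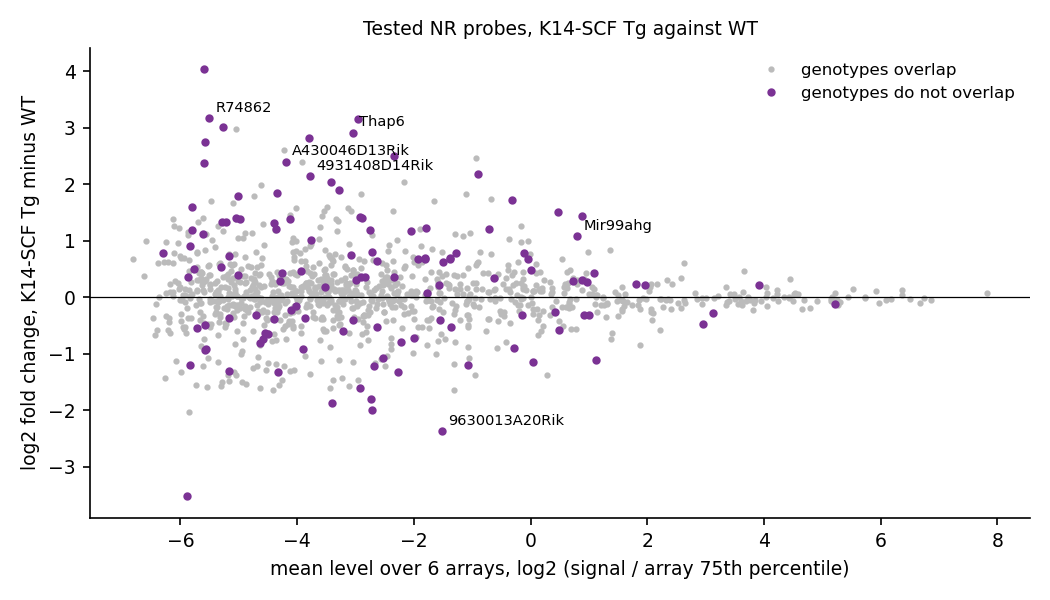
Log2 fold change of K14-SCF Tg over WT (vertical) against mean level over 6 arrays (horizontal, log2 of signal over the array's 75th percentile) for the 1159 tested NR probes. The 121 probes whose genotypes do not overlap are purple and the others grey. Large differences lie among dim probes, and none of the 1159 passed the adjusted test.

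The differences described next did not pass either, and are given for the 8 named probes in each direction with the smallest p among those with a symbol, without overlap and detected above background in both genotypes, on 1 or more arrays of each. 9630013A20Rik, a lncRNA that overlaps the protocadherin gene Pcdh17, stood at 0.02, -0.65 and -0.39 in WT and -2.45, -2.77 and -2.92 in K14-SCF Tg. All K14-SCF Tg values lay well below all WT values. The log2 difference was -2.37 (SE 0.28; unadjusted p = 0.000152, limma adjusted p = 0.416). The Pcdh17 probe ranged from -8.35 to -2.21 over the 6 arrays and gave 0.62 (SE 1.65).

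4931408D14Rik, whose nearest coding gene is Ide, stood at -4.44, -4.88 and -5.21 in WT and -2.34, -2.95 and -2.80 in K14-SCF Tg. Every K14-SCF Tg value was higher, with a log2 difference of 2.15 (SE 0.31; limma adjusted p = 0.416), while the Ide probe gave 0.13 (SE 0.45). Thap6 stood at -3.88, -4.16 and -5.49 against -1.62, -1.82 and -1.35 on one probe (log2 difference 2.92, SE 0.47; limma adjusted p = 0.434). Its other probe overlapped and gave -0.51 (SE 0.61), so the probes of Thap6 did not share a direction.

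1110028F18Rik, whose promoter is shown above and whose nearest coding gene is Cdh1, stood at -3.59, -3.04 and -3.41 in WT and -2.48, -1.83 and -2.15 in K14-SCF Tg. The genotypes were apart (log2 difference 1.19, SE 0.28; limma adjusted p = 0.63), and Cdh1, the E-cadherin gene, gave -0.15 (SE 0.33). Gm12522 stood at -1.22, -1.05 and -1.68 against -0.42, 0.16 and -0.05 (log2 difference 1.21, SE 0.29; limma adjusted p = 0.63). The gene it overlaps, Mybphl, stood at -2.21, -2.08 and -3.14 against -0.72, -1.90 and -0.76, so both were higher on all K14-SCF Tg arrays (Mybphl: log2 difference 1.35, SE 0.46, limma adjusted p = 0.859).

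A430046D13Rik, R74862 and Speer8-ps1 gave log2 differences of 2.40 (SE 0.50), 3.18 (SE 0.66) and 1.72 (SE 0.46). R74862 was above background on 1 WT array on that probe, so its difference rests on WT values mostly not well above background, and its brighter probe, at -0.14 to 0.68, gave 0.07 (SE 0.28). In the other direction, 2810025M15Rik stood at 1.29, 1.95 and 1.76 in WT and 0.70, 0.64 and 0.35 in K14-SCF Tg (log2 difference -1.11, SE 0.27; limma adjusted p = 0.645). Its brighter probe overlapped between the genotypes and gave -0.13 (SE 0.27). The remaining lower probes were 2410018L13Rik (-1.99, SE 0.53), 1700049L16Rik (-1.32, SE 0.36), Mageb16-ps1 (-1.30, SE 0.36), 9030619P08Rik (-1.07, SE 0.26), Vmn2r-ps129 (-0.91, SE 0.28) and Platr8 (-0.81, SE 0.26), all as log2 differences.

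Among accessions without a symbol, NR_002845 had the smallest p, at -5.45, -4.12 and -4.05 in WT and -0.76, -1.45 and -1.93 in K14-SCF Tg (log2 difference 3.16, SE 0.51; limma adjusted p = 0.434). Every K14-SCF Tg value was above every WT value.

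**Figure D4:**
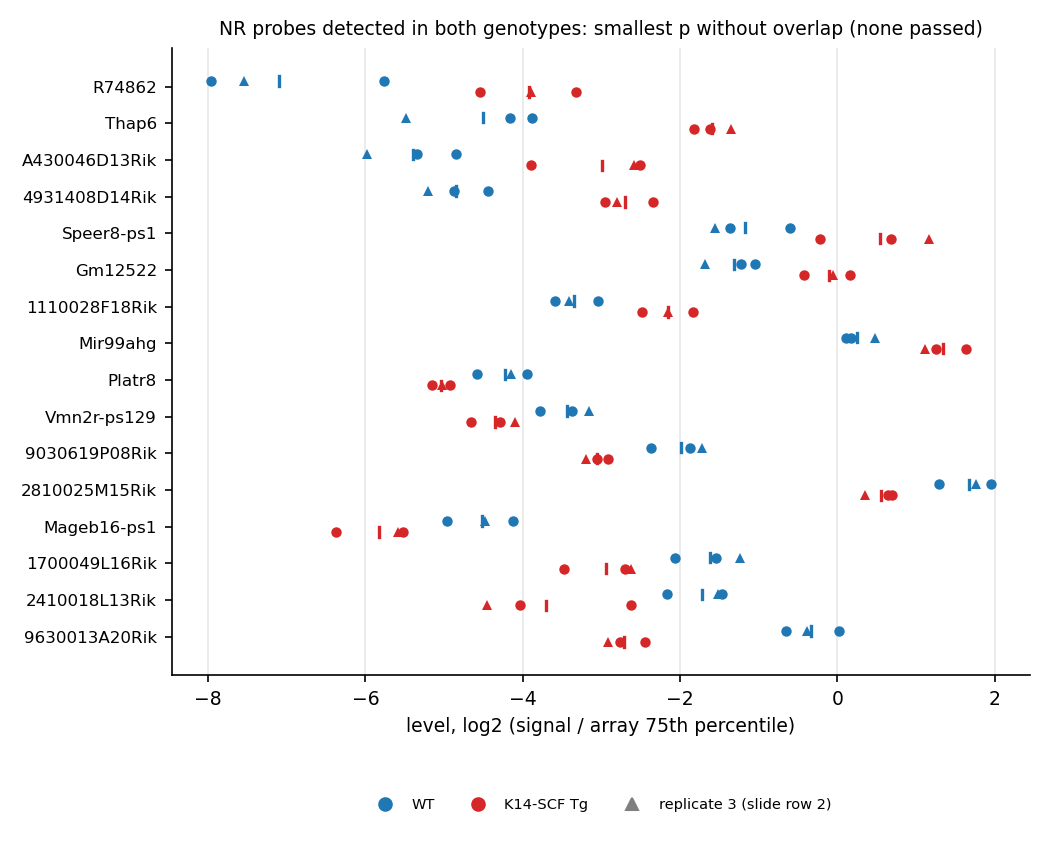
Level (log2 of signal over the array's 75th percentile) on each array of 16 NR probes with a symbol, detected above background in both genotypes and named for the smallest p among those whose genotypes do not overlap, 8 higher and 8 lower in K14-SCF Tg (red) than in WT (blue), with bars for genotype means and triangles for replicate 3. Over these 16 the lowest log2 difference is -2.37, for 9630013A20Rik, R74862 at the top was above background on 1 WT array only, and none passed the adjusted test.

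A few probes were above background on all 3 arrays of one genotype and on 0 of the other. Their folds are lower bounds: the bright genotype's mean against, on each array of the dim one, the lowest signal well above background, or the probe's own where that was higher. Gm16958, a lncRNA that overlaps Ank2, was at least 5.75-fold higher in K14-SCF Tg, where it stood at -3.95, -5.0 and -1.78. BC051537, which overlaps H2-Oa, was at least 5.07-fold higher, at -4.40, -4.47 and -2.40. In both, the third K14-SCF Tg sample was the highest, and without it the bounds were 3.09-fold for Gm16958 and 3.17-fold for BC051537.

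The H2-Oa probe itself stood at -3.82, -4.85 and -6.07 in WT and -1.38, -3.77 and -1.47 in K14-SCF Tg, so it was also higher on all K14-SCF Tg arrays (log2 difference 2.71, SE 0.86; limma adjusted p = 0.818). The pseudogene Tspy-ps was at least 3.68-fold higher in K14-SCF Tg, at -3.55, -4.68 and -4.40, and the dimmest Meg3 probe at least 1.14-fold higher. In the other direction, 4930426L09Rik was at least 4.91-fold higher in WT, a value carried by the third WT sample at -1.15 beside -5.73 and -5.51, and without that sample the bound was 1.75-fold. Those that were tested passed the filter only through the genotype in which they were bright, so no test is given for them.

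Marker genes of other cells varied beside these comparisons. The signals of a list's markers were summed on the linear scale and given as log2, so the brightest marker weighs most. For the 6 fibroblast markers this was 4.53 to 6.09 in WT and 3.03 to 4.44 in K14-SCF Tg, without overlap. Of the 6, 0 passed the test. The keratinocyte markers summed to 6.83 to 7.18 in WT and 7.05 to 7.15 in K14-SCF Tg, and the melanocyte markers to 7.99 to 8.42 and 7.99 to 8.25. The leukocyte markers summed to 0.35 to 2.40 and 0.40 to 1.36. No defining marker of these lists was below background on every array, and their part in the noncoding values was not tested.

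A position on the slide went with several well-known RNAs. Each array lies in a row of its slide, and the third replicates of both genotypes lie in row 2, the others in row 1. Kcnq1ot1, the antisense RNA that silences the Kcnq1 domain, stood at -1.74, -2.21 and 0.75 in WT and -2.65, -0.81 and 0.10 in K14-SCF Tg on one probe and at -1.24, -2.33 and 0.03 against -2.32, -1.26 and 0.56 on the other. On both probes the row 2 arrays were the highest, by 2.28 (SE 0.61) and 2.08 (SE 0.49) on the log2 scale, while the genotype differences were -0.06 (SE 1.03) and 0.17 (SE 0.91).

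Gm16062 stood at -1.48, -2.28 and 0.63 against -1.31, -2.42 and 0.49, again highest in row 2. AA388235 stood at -0.76, 0.04 and -3.68 against -1.72, -0.27 and -4.04, and the pseudogene Tyms-ps at -0.47, -1.39 and -3.94 against -2.07, -1.45 and -3.89, both lowest in row 2. The NR probe of Rreb1, a noncoding isoform of a zinc finger gene, stood at 0.43, 0.83 and -7.18 against -0.16, -2.06 and -6.18, the widest such gap among the probes named here. These RNAs were chosen after their values were seen.

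Row 2 lay above row 1 without overlap on 133 tested NR probes (11.5%) and below it on 86 (7.42%), against 13.2% and 9.07% of all tested probes and 12.4% and 11.5% of NM probes. In a limma fit with row as a term, 0 NR probes passed for row (background 0.0%; smallest adjusted p 0.311) and 89 (7.68%) had an unadjusted p under 0.05, against 9.97% of all tested probes and 11.8% of NM probes. The NR shares for row were below those of all tested probes. With row as a covariate, 0 NR probes passed for genotype and 45 (3.88%) were higher and 22 (1.9%) lower at an unadjusted p under 0.05, against 3.83% and 2.87% of all tested probes. Within row 1 the counts were 0, 43 (3.71%) and 15 (1.29%), against 3.54% and 2.62% of all tested probes higher and lower, and row 2 holds 1 array of each genotype and allows no test. Row is a position on the slide as the headers give it; what else the third replicates share cannot be told apart from it.

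Spread between replicates had a smaller median for noncoding than for coding probes in each bin of brightness. The SD within a genotype had a median of 0.45 for the 1159 tested NR probes and 0.48 for NM probes, although the NR probes were dimmer. With all tested probes cut into 4 equal bins of brightness, from dimmest to brightest, the NR medians were 0.57, 0.55, 0.45 and 0.20 and the NM medians 0.65, 0.67, 0.54 and 0.32. In 10 of 10 finer bins of brightness the NR median was the lower, with 0.64 against 0.65 in the dimmest. The bins did not make the sets fully alike: in the brightest of the 10, the median level was 4.03 for NR and 3.29 for NM probes, and the part of level in the gap was not tested there. With normexp and quantile normalization the overall medians were 0.29 for NR and 0.38 for NM probes, the dimmest bin had 0.20 for both to 2 decimals, and the NR median was the lower in 10 of 10 bins. It was the lower in 9 of 10 without K14-SCF Tg replicate 1 and without both arrays of row 2, and in 10 of 10 with any other replicate left out. This is a description of 2 probe sets on the same arrays, with no test.

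Among NR probes in the brightest of the 4 bins, the smallest SDs were those of 8430426J06Rik (2.38, 2.45 and 2.41 in WT; 2.34, 2.39 and 2.37 in K14-SCF Tg), Gm5523, Gm6607 and 3110099E03Rik, with SDs between 0.03 and 0.06. Gm5523 and Gm6607 are transcribed pseudogenes. The largest were those of 4931406H21Rik (3.52, 0.18 and 3.21 against 0.89, 1.71 and 1.76; SD 1.17), Zfp672 (SD 1.00), 9330133O14Rik (SD 0.77) and Peg3os (SD 0.77). 9330133O14Rik was lowest in the third replicate of both genotypes, at 1.66 and 1.41, against 2.68 to 3.08 on the other arrays.

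**Figure D5:**
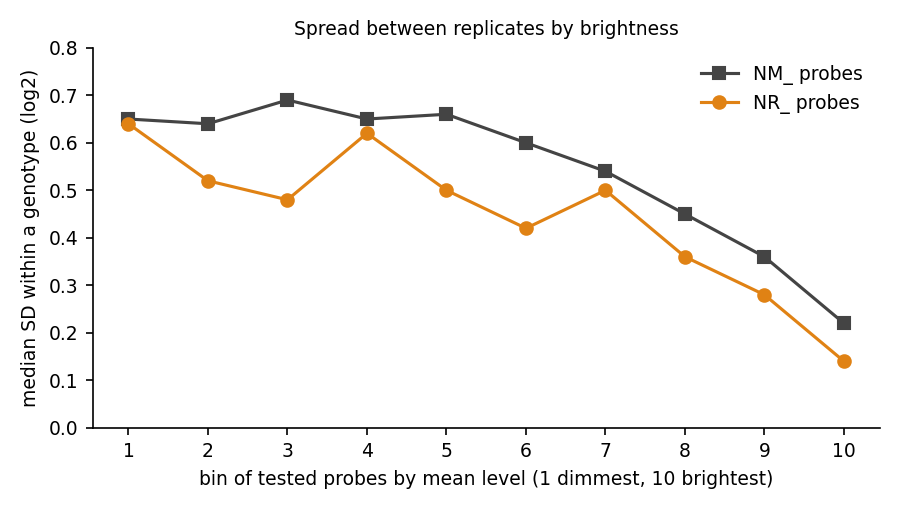
Median SD within a genotype (log2) in 10 equal bins of all tested probes by mean level, for NR probes (circles) and NM probes (squares). The NR median lies below the NM median in 10 of 10 bins, and they fall from 0.64 and 0.65 in the dimmest to 0.14 and 0.22 in the brightest.

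Where a gene had several tested NR probes, these often parted on the genotype as well as on the level: of 83 such genes, 49 had probes with the same sign of difference and 34 had opposite signs. A gene can also have an NR and an NM probe, for its noncoding and its coding isoforms, and 19 genes did. With the brightest probe of each kind taken, the NR probe was the dimmer in 13 of them, with a median gap of -1.61. Prmt6, an arginine methyltransferase, went the other way, at 0.04 on its brighter NR probe against -3.55 on its NM probe, but its other NR probe stood at -4.75. Etfb, of the mitochondrial electron transfer chain, stood at 1.62 on its NR probe, between its NM probes at 3.21 and -0.61. Zfp207 stood at 1.45 against 1.24. Of the 16 genes with both probes tested, 10 had the same sign of genotype difference on both.

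The gap in level between NR and NM probes was widest for Gm14296 (-8.01) and Iqsec3 (7.87). For Runx2, a transcription factor best known from bone, it was -5.42. The Runx2 NR probe was above background on 2 arrays. Its brighter NM probe stood at -2.50, -2.23 and -1.11 in WT and -0.80, 0.14 and 0.29 in K14-SCF Tg. The genotypes did not overlap on that NM probe (log2 difference 1.82, SE 0.49, limma adjusted p = 0.691). They did not overlap on the other NM probe either (log2 difference 2.74, SE 0.99, limma adjusted p = 0.877). The NR probe could not be tested, so no difference between the isoforms is shown. Runx2 was named after its values were seen.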

How the data were processed

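Total RNA of 3 WT and 3 K14-SCF Tg samples was read on 6 single-colour arrays, 1 per sample, with Agilent Feature Extraction 10.7.1.1, per the submitters' processing notes. Per the file headers, the processed signal is an intensity that was background-subtracted and detrended within each array, with no scaling across arrays, and the probe design refers to build mm9. Precision is limited by 3 arrays per genotype. The authors' deposited value table holds ratios: each value was the processed signal over 1 constant per array (1404.6 to 1678.0) for 99.99% to 100.0% of probes, with column medians of 0.169 to 0.188. It is linear, and it served as an alternative.

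Control spots and outlier spots were left out (3 probes lost all spots on some array), spots of a probe were averaged, and log2 of the signal over the array's 75th percentile was taken as the level. Those with a signal well above background on 3 or more of 6 arrays were tested with lmFit and eBayes in limma 3.58.1 (R 4.3.3), adjusted by Benjamini-Hochberg over all 47709 tested probes at 0.05. The limma fit had 4 residual and 1.91 prior degrees of freedom. Single values were compared with exact permutation tests (scipy 1.17.1). On simulated data for this comparison, with 47709 probes, the fit recovered 19.3% of 4-fold, 44% of 8-fold and 59.3% of 16-fold changes and 0% of 2-fold changes.

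Symbols, types and overlaps came through NR accessions from a RefSeq gene table on GRCm38.p6, another build than the arrays', so no gene position of it is printed. The members and gene lists were chosen with earlier results of these data known. Named genes were the 12 brightest symbols of noncoding type, the 8 probes per direction with the smallest p among those with a symbol, without overlap of the genotypes and detected above background in both, on 1 or more arrays of each, up to 4 per direction above background in 1 genotype alone, up to 5 detected members of each list with Malat1, Neat1, Xist, H19, Meg3, Kcnq1ot1 and Terc, the 4 genes of largest and 4 of smallest spread in the brightest of 4 bins, and up to 4 genes with NR and NM probes. Gas5 was also to be named, but no NR probe matched that symbol. Same-numbered WT and K14-SCF Tg samples had correlations of deviations of 0.019, 0.052 and 0.131, so numbers were not taken as pairs. Alternatives covered scaling, background, filter, slide, variance model, replicates left out and, added after seeing the data, slide row 2 left out, lower bounds with 1 bright array left out, spread by setting and 3 genes dropped from the microRNA host list.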

Additional observations from a re-analysis of the deposited data

How the results depend on the processing

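No NR probe passed the adjusted test under any of the alternatives run, and the smallest adjusted p of an NR probe over them was 0.372. The count higher at an unadjusted p under 0.05, 40 in the reported fit, was 25 with each array scaled to its median (2.16%, against 2.57% of all tested probes) and 26 with a filter of 6 arrays, which tests 918 probes (2.83%, against 2.99%). The count lower, 19 as reported, was 32 with no filter, which tests 1559 probes (2.05%, against 2.26%). Leaving out 1 replicate at a time gave 29 to 46 higher and 17 to 28 lower. Genotypes without overlap, 121 as reported, became 204 to 270 when any 1 of the 6 replicates was left out (204 without K14-SCF Tg replicate 1, 225 and 236 without its replicates 2 and 3, and 223, 270 and 265 without WT replicates 1, 2 and 3) and 409 without both arrays of slide row 2; fewer arrays separate more often by construction. Of all tested probes 10.3% did not overlap as reported, 18.0% to 22.7% with 1 replicate left out and 35.6% without row 2, against 10.4%, 17.6% to 23.3% and 35.3% of NR probes. The median log2 difference, 0.04 as reported, was -0.00 with quantile normalization and with normexp, -0.04 with the array median, 0.12 with scaling to NM probes, 0.01 with no filter and 0.02 to 0.07 with 1 replicate left out, 0.07 being without WT replicate 3. Array median scaling moved the median of all tested probes from 0.01 to -0.07. The share of NR probes above background, 72.5% over arrays, was 89.9% by the looser flag for a positive and significant signal and 71.5% to 74.0% with 1 array left out. The replicate number as a block gave 0 NR probes passing and 31 higher and 23 lower unadjusted (2.67% and 1.98%, against 3.71% and 2.8% of all tested probes), and no call changed. Of 2467 alternative values for 131 named probes, 2444 were labelled the same, 23 moved and 0 reversed. Only a difference at least as large as its SE could be labelled reversed. A smaller one could change sign and be labelled the same, if it shifted by less than the SD within a genotype. No named probe passed in any setting (smallest limma adjusted p 0.372 over the alternatives). The labels therefore say nothing about calls, and little about the sign of small differences. Signal over background limits the dim probes: 400 NR probes could not be tested, and changes under 4-fold were rarely recovered in simulation at 3 arrays per genotype.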
